A study of Mus musculus with 36 samples.

Results

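Arc, the neuronal pentraxin genes Nptx1, Nptx2 and Nptxr, Homer1, Inhba, Pcsk1 and Scg2 were described in RNA from the anterior cingulate cortex (aCC) of 36 female mice, with 1 library per mouse. They were taken by name as 8 effectors of synaptic activity from the 52636 genes of the table, and 8 of the 8 passed the filter on low values used for tests. The list was chosen by gene name with the TPM differences of such genes between imipramine and vehicle in these same libraries known. The comparisons of imipramine with vehicle are therefore a description of these genes: no p is printed for them, and where they are counted past a threshold the share of all genes stands beside the count and nothing is read from it. All mice were of the C57BL/6NTac-Brd1 strain, aged 8 to 11 weeks, and were either wild type (WT) or carried a heterozygous targeted deletion in Brd1 (Brd1+/-), a gene whose bromodomain protein helps to build complexes that acetylate histones. Injections under the skin were of saline (vehicle) to 8 WT and 9 Brd1+/- mice, and of the tricyclic antidepressant imipramine (IMN) at 10 mg/kg to 10 WT and 9 Brd1+/- mice. Every mouse, controls included, was injected on consecutive days and went through a tail suspension test, an open field and a forced swim. The brain, punched later, was collected about an hour after the swim, so no group was at rest. The question put to these genes was whether their level differed with IMN and with the Brd1 allele.

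The 8 genes act at and around excitatory synapses, and neuronal firing is known to raise the mRNA of most of them. Arc protein helps to remove AMPA-type glutamate receptors from the synapse, while the secreted pentraxins encoded by Nptx1 and Nptx2, held by the membrane-bound pentraxin of Nptxr, gather those receptors there. Homer1 encodes scaffold proteins of the postsynaptic density, and its short activity-induced form uncouples the complexes that the long forms hold together. Inhba encodes the subunit of activin A, Pcsk1 a convertase that cuts prohormones, and Scg2 secretogranin II, a granin of dense-core vesicles that is a source of the peptide secretoneurin. All were measured at the level of the gene as TPM, transcript abundance per length of transcript scaled to a total that is the same for every library. The short and long forms of Homer1 were therefore summed.

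Promoters of 4 of the 8 genes were found in the RefSeq table of build GRCm38.p6, and the 250 bases before the start site are shown, 5′ to 3′ on the strand of the gene, because activity reaches many neuronal genes through the cyclic AMP response element (CRE). Capitals mark matches on either strand to the CRE core TGACG, which lies within the full CRE TGACGTCA.
Homer1, chr13:93303507-93303756, plus strand: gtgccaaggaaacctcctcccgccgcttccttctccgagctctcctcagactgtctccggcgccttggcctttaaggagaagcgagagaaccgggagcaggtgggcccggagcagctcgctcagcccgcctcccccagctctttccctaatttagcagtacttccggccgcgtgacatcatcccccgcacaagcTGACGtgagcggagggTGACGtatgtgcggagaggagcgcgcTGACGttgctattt
Pcsk1, chr13:75089607-75089856, plus strand: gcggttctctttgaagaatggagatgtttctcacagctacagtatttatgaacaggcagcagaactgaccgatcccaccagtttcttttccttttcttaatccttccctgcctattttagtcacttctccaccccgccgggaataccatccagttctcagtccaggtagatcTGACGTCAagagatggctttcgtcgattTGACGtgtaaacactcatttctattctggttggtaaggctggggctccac
Scg2, chr1:79440027-79440276, minus strand: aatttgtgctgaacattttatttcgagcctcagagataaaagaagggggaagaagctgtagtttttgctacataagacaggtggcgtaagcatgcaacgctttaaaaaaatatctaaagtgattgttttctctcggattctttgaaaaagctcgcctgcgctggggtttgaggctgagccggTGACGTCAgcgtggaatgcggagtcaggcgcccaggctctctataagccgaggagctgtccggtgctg
Inhba, chr13:16011601-16011850, plus strand: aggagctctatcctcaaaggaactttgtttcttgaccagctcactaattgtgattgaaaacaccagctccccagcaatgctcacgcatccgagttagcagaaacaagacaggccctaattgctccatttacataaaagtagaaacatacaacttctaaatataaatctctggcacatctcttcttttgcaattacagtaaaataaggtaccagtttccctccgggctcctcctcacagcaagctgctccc
The full CRE was found in Pcsk1, beginning 78 bases before the start, and in Scg2, beginning 68 bases before it, while 1.55% of the 32851 promoters of the table hold it in a window of this length. Homer1 held the core alone, at 56, 40 and 14 bases before the start, and 17.8% of all promoters hold at least 1 core, full CREs included. No core lies in the Inhba window. The letters TATAA on the strand of the gene, held by 16% of promoters, lie 27 bases before the start of Scg2 and 91 before that of Inhba. None of the 4 windows held an AP-1 site TGANTCA, found in 6.75% of promoters on either strand, or a serum response element, found in 1.47%. The second Homer1 start of the table, chr13:93307784-93308033, held none of these motifs. Gene models differ in their start: GENCODE places that of Scg2 94 bases and that of Pcsk1 31 bases further upstream, and the Homer1 start shown lies 4122 bases inside its gene. Letters that match are no evidence that a factor binds.

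The Brd1 transcript lay between 22.6 and 31.9 TPM in WT vehicle and between 13.8 and 20.9 TPM in Brd1+/- vehicle, with no overlap, which set Brd1 apart as the single gene of those tested (0.00391%) that was lower in every Brd1+/- vehicle library. Under IMN it ran from 17.9 to 27.8 TPM in WT and from 13.5 to 19.4 TPM in Brd1+/-, and these ranges overlap. The genotype difference of Brd1 was -0.64 ± 0.09 (log2, SE; adjusted p = 0.062, limma) under vehicle and -0.45 ± 0.09 (adjusted p = 0.88) under IMN, so the main fits of a pair of groups did not call it. The paper, which tested with edgeR, reported Brd1 as the sole aCC gene that passed FDR correction between the vehicle groups. Over both treatments the genotype difference of Brd1 was -0.54 ± 0.07 (adjusted p = 2.8e-05, limma). Slc17a7, a marker of cortical excitatory neurons, lay between 395 and 1652 TPM (median 1148), and Neurod6, which marks cortical projection neurons, was at 79.8 TPM or more, so the markers of cortex were present throughout. The 8 markers of cortical excitatory neurons summed to 696 TPM in Brd1+/- vehicle replicate 7 and to 1420 TPM or more in the rest of that group. Markers of other tissue varied between punches. Brd1+/- vehicle replicate 6 had a summed level of 12 striatal markers of 1642 TPM, where the other 8 libraries of its group lay at 342.6 TPM or less, and its 12 choroid plexus markers summed to 4598 TPM. Summed oligodendrocyte markers (10 genes) ran from 192 to 2850 TPM in WT vehicle, 242 to 1811 TPM in Brd1+/- vehicle, 234 to 3579 TPM in WT IMN and 232 to 3446 TPM in Brd1+/- IMN. WT vehicle replicate 1 stood at the top of its group in that sum and stood apart from its group in several of the genes described, so results that rest on it are given with and without it. The same holds for Nptxr with Brd1+/- vehicle replicate 6 and Brd1+/- IMN replicate 9, its lowest libraries, and for Brd1+/- vehicle replicate 7.

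Arc (ENSMUSG00000022602, chr15:74669083-74672570, minus strand, build GRCm38 as for all genes), whose product acts in the removal of AMPA receptors, was lower in the IMN groups. It lay between 148 and 343 TPM in WT vehicle (median 284) and between 153 and 389 TPM in Brd1+/- vehicle (median 277). Under IMN it ran from 138 to 300.2 TPM in WT (median 184) and from 116 to 269 TPM in Brd1+/- (median 133). All 4 ranges overlap, with WT vehicle replicate 4 and Brd1+/- vehicle replicate 1 low among the vehicle mice and WT IMN replicate 6 and Brd1+/- IMN replicates 7 and 9 high among the treated ones. Nevertheless, 9 of 10 WT IMN and 9 of 9 Brd1+/- IMN libraries lay below the mean of the vehicle group of their genotype. On the log2(TPM + 0.5) scale the difference of IMN from vehicle was -0.53 ± 0.16 (SE) in WT and -0.81 ± 0.20 in Brd1+/- mice.

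Of the pentraxins, Nptx2 was lower under IMN in both genotypes, whereas Nptx1 was not. Nptx2 (ENSMUSG00000059991, chr5:144545902-144557478, plus strand), the activity-induced pentraxin also known as Narp, lay between 66.0 and 115 TPM in WT vehicle (median 104) and between 62.4 and 125 TPM in Brd1+/- vehicle (median 93.2). It ran from 30.6 to 85.4 TPM in WT IMN (median 62.1) and from 30.9 to 79.9 TPM in Brd1+/- IMN (median 61.8). The vehicle and IMN ranges of WT mice met only through WT vehicle replicate 1, at 66.0 TPM: the other 7 libraries of that group began at 98.1 TPM, above all 10 WT IMN libraries. Such a separation, with IMN lower, was seen in 0.0899% of the genes tested once that library was left out and in 0.0156% with it. The difference was -0.71 ± 0.16 (SE) in WT, -0.79 ± 0.15 without WT vehicle replicate 1, and -0.62 ± 0.16 in Brd1+/- mice. In Brd1+/- mice the vehicle and IMN ranges overlapped for 8 of the 8 genes described, and 0.00391% of all genes did not overlap there with IMN lower.

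Nptx1 (ENSMUSG00000025582, chr11:119538719-119547753, minus strand), a pentraxin of the same secreted type, had medians under vehicle of 142 TPM in WT and 144 TPM in Brd1+/- mice, and under IMN of 171 and 151 TPM. Its highest values, 333 TPM in WT vehicle replicate 1 and 367 TPM in WT IMN replicate 7, came from the libraries with the highest oligodendrocyte sums of their groups. Yet Brd1+/- IMN replicate 6, which had the highest such sum of its group (3446 TPM), held the lowest Nptx1 of all 36 libraries, 90.8 TPM. The difference of IMN from vehicle was 0.07 ± 0.23 in WT mice, 0.23 ± 0.20 without WT vehicle replicate 1, and -0.03 ± 0.15 in Brd1+/- mice. With scores of the striatal and the oligodendrocyte markers as covariates it was -0.30 ± 0.12 in WT mice, so the sign in WT mice turned with the scores. All 4 ranges of Nptx1 overlap.

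Nptxr (ENSMUSG00000022421, chr15:79786351-79804766, minus strand), the membrane-bound pentraxin and the gene of the 8 with the highest level, varied most between mice. WT vehicle libraries lay between 243 and 740.1 TPM (median 628), Brd1+/- vehicle between 52.9 and 669.5 TPM (median 553), WT IMN between 285 and 703 TPM (median 451) and Brd1+/- IMN between 68.8 and 657 TPM (median 420.0). The low tail held 4 libraries: WT vehicle replicate 1 at 243 TPM, Brd1+/- vehicle replicate 6 at 52.9 TPM, and Brd1+/- IMN replicates 6 and 9 at 114 and 68.8 TPM. Of these, WT vehicle replicate 1, Brd1+/- vehicle replicate 6 and Brd1+/- IMN replicate 6, had the highest oligodendrocyte sum of their group. The differences with IMN were -0.32 ± 0.20 in WT, -0.50 ± 0.16 without WT vehicle replicate 1, and -0.28 ± 0.49 in Brd1+/- mice. In the latter 1 library decided the value, since it was -0.65 ± 0.38 without Brd1+/- vehicle replicate 6 and 0.003 ± 0.44 without Brd1+/- IMN replicate 9. Npcd overlaps Nptxr on the same strand and was listed at 0 to 9.59 TPM, and adding its TPM to those of Nptxr left the WT difference at -0.32, in a check chosen after the data were seen.

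Homer1 and Inhba were lower under IMN in either genotype, by less for Homer1. Homer1 (ENSMUSG00000007617, chr13:93299635-93405129, plus strand) lay between 131 and 173 TPM in WT vehicle (median 153) and between 98.6 and 166 TPM in Brd1+/- vehicle (median 154). Under IMN it ran from 57.8 to 153 TPM in WT (median 127) and from 60.4 to 139 TPM in Brd1+/- (median 119). The lowest treated libraries, WT IMN replicate 3 and Brd1+/- IMN replicate 6, were the same that were lowest for Nptx2 and Inhba. The upper end of each IMN group lay within the vehicle range, and the differences were -0.38 ± 0.15 in WT and -0.40 ± 0.13 in Brd1+/- mice.

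Inhba (ENSMUSG00000041324, chr13:16011851-16031621, plus strand) had the lowest level of the 8 genes, between 3.23 and 6.32 TPM in WT vehicle (median 5.43) and between 2.50 and 6.05 TPM in Brd1+/- vehicle (median 4.62). WT IMN libraries lay between 1.72 and 4.75 TPM (median 3.35), and Brd1+/- IMN libraries between 0.976 and 6.63 TPM (median 2.87). Brd1+/- IMN replicate 3, at 6.63 TPM, was the highest library of all 36, and replicate 6 of that group the lowest. The differences were -0.58 ± 0.16 in WT and -0.65 ± 0.23 in Brd1+/- mice. Without WT vehicle replicate 1 the WT difference was -0.66 ± 0.16. With each library left out, that in Brd1+/- mice ran from -0.80 (without Brd1+/- IMN replicate 3) to -0.51 (without Brd1+/- IMN replicate 6). The pseudogene B230303A05Rik overlaps Inhba on the opposite strand at a mean of 6.85 TPM, and without stated use of strand, reads of the pair cannot be told apart.

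Among the genes of the secretory pathway, Pcsk1 was lower under IMN and Scg2 was much the same in all groups. Pcsk1 (ENSMUSG00000021587, chr13:75089826-75134861, plus strand) lay between 26.2 and 52.0 TPM in WT vehicle (median 43.6), 33.0 and 57.4 TPM in Brd1+/- vehicle (median 46.2), 27.8 and 41.8 TPM in WT IMN (median 35.9) and 30.3 and 40.8 TPM in Brd1+/- IMN (median 35.4). Treated libraries were narrowly spread, and 10 of 10 and 9 of 9 lay below the mean of the vehicle mice of their genotype. WT vehicle replicate 1 was the lowest library of all for Pcsk1, and the WT difference was -0.23 ± 0.11 with it and -0.32 ± 0.09 without it. In Brd1+/- mice the difference was -0.35 ± 0.09. Scg2 (ENSMUSG00000050711, chr1:79434669-79440120, minus strand) had medians of 154 TPM (WT) and 164 TPM (Brd1+/-) under vehicle and of 150.2 and 147 TPM under IMN, and differences with IMN of -0.06 ± 0.09 in WT and -0.08 ± 0.10 in Brd1+/- mice. Without Brd1+/- vehicle replicate 7, the lowest library for Scg2, the latter was -0.15, and those of Homer1 and Nptx2 in Brd1+/- mice were -0.47 and -0.68. Other libraries moved these 2 genes the other way. Without Brd1+/- IMN replicate 6 the differences of Homer1 and Nptx2 in Brd1+/- mice were -0.30 and -0.51. In WT mice they were -0.27 and -0.60 without WT IMN replicate 3.

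**Figure D1:**
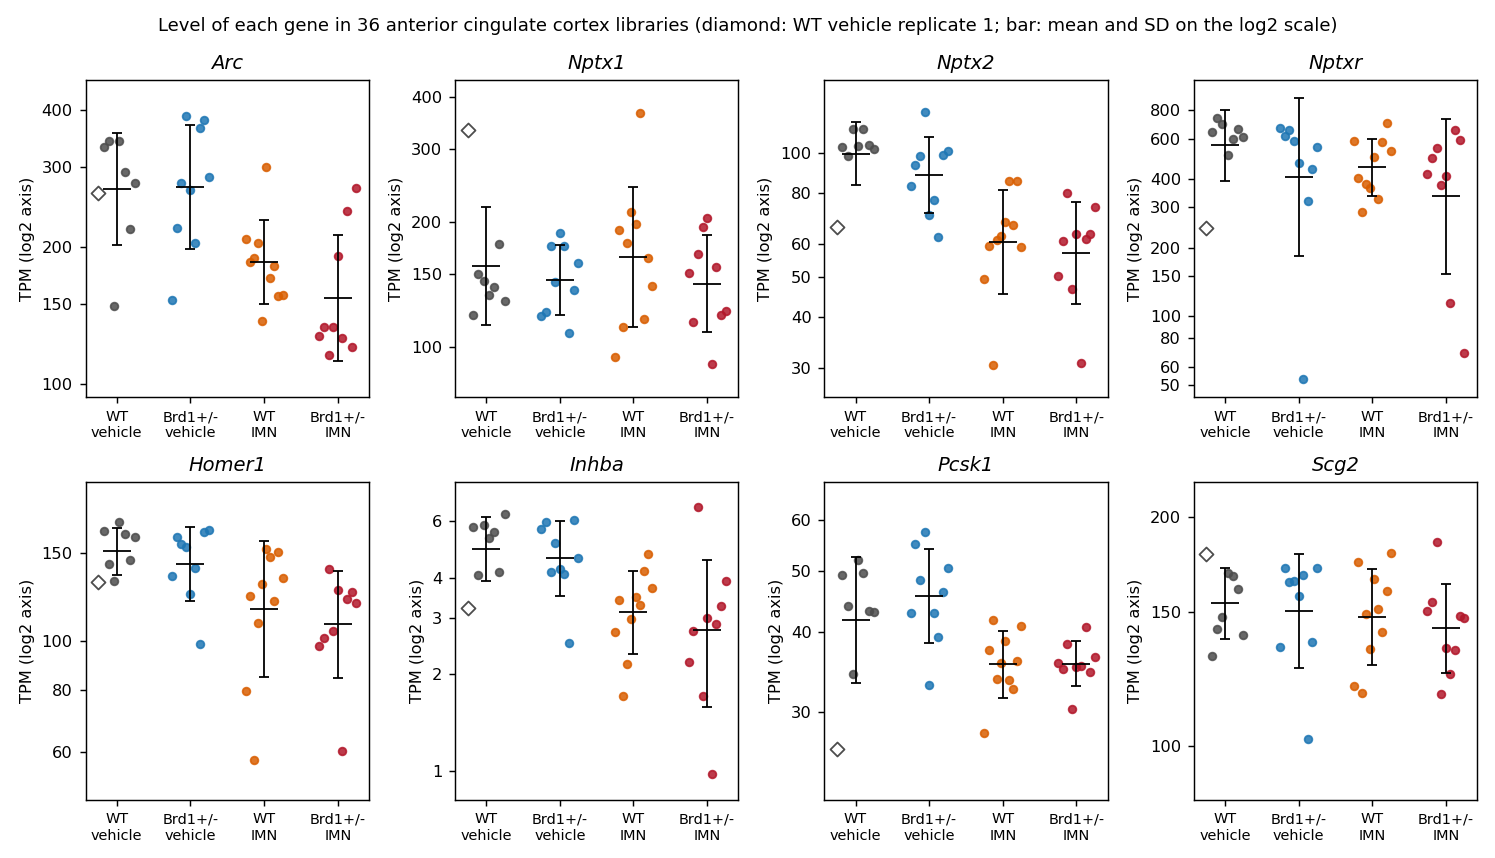
TPM of each gene on a log2 axis in the 36 libraries, by group. Points are libraries, the open diamond is WT vehicle replicate 1, and the bars give the mean and SD on the log2 scale. Leaving out the diamond, all 7 WT vehicle libraries lie at 98.1 TPM or more for Nptx2 and all WT IMN libraries at 85.4 TPM or less.

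Over the 8 genes, 7 had a lower mean under IMN than under vehicle in WT mice and 8 in Brd1+/- mice (54.5% and 47.5% of all genes), with median differences of -0.35 and -0.38. The medians over all 25572 genes tested were -0.01 and 0.01. At an unadjusted p under 0.01 in limma, 3 of the 8 were lower in WT mice (Arc, Nptx2, Inhba), against 1.15% of all genes, and 4 in Brd1+/- mice (Arc, Nptx2, Homer1, Pcsk1), against 0.551%. Without WT vehicle replicate 1, 5 were lower in WT mice, now with Nptxr and Pcsk1, against 2.26% of all genes, and the median was -0.45. In a fit over both genotypes 5 of the 8 were lower at that level, against 1.94%, and 3 of them, Arc, Nptx2 and Inhba, at an adjusted p under 0.05, against 0.184% of all genes. Without WT vehicle replicate 1, Pcsk1 joined them, and 0.485% of all genes were lower at that level. Since the genes were listed with this response known, nothing is read from these counts.

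Putting the 4 groups in order of mean log2 level over all libraries, a step between neighbours exceeded their pooled SD for 3 genes. For Arc it was the step from WT vehicle down to WT IMN, 0.53 against an SD of 0.36. For Nptx2 and Inhba it was that from Brd1+/- vehicle down to WT IMN, 0.54 against 0.37 and 0.49 against 0.36. All other neighbours, which include every step of Nptx1, Nptxr, Homer1, Pcsk1 and Scg2, differed by less than 1 pooled SD. Without WT vehicle replicate 1 the WT vehicle mean of Pcsk1 was 5.50 (SD 0.20), beside 5.18 (SD 0.11) in Brd1+/- IMN. That of Nptxr was 9.31 (SD 0.18), beside 8.81 (SD 0.42) in WT IMN. That of Nptx2 was 6.73 (SD 0.08), beside 6.47 (SD 0.30) in Brd1+/- vehicle. The gaps of Pcsk1 and Nptxr exceeded both SDs, so the count of 3 genes holds only with that library. In tissue RNA of this kind, fewer cells of a type cannot be told apart from less RNA per cell.

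**Figure D2:**
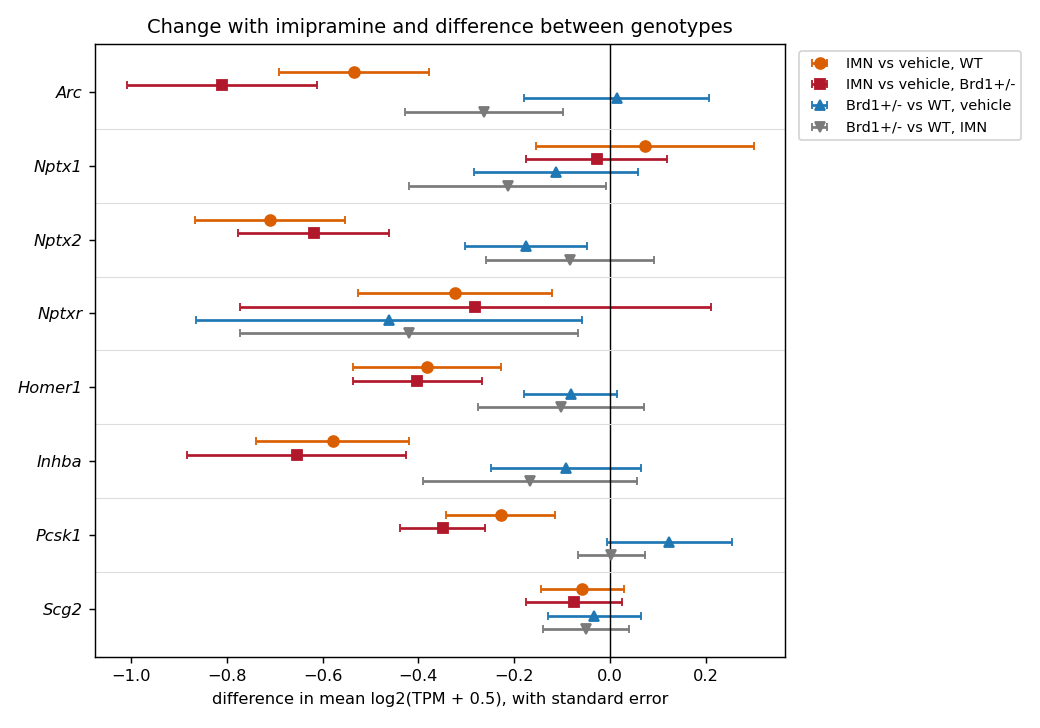
Differences in mean log2(TPM + 0.5) with their standard errors, for IMN against vehicle in each genotype and for Brd1+/- against WT under each treatment. IMN differences of Arc, Nptx2, Homer1, Inhba and Pcsk1 lie left of 0 in both genotypes, and the genotype differences reach no further than -0.46, for Nptxr.

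Between genotypes, none of the 8 genes passed a test, under vehicle or under IMN. In vehicle mice the differences of Brd1+/- from WT ran from -0.46 ± 0.40 (SE) for Nptxr to 0.12 ± 0.13 for Pcsk1, with a median of -0.09, and the median of all genes was -0.02. No gene of the 8 was called at an unadjusted p under 0.01 (0 of 8, limma, against 0.7% of all genes) or under 0.05 (0 of 8, against 3.75%). Two-sided exact permutation tests over 24310 arrangements of the libraries gave p from 0.22 (Nptx2) to 0.95 (Arc). The 95% interval was -0.39 to 0.42 for Arc and -0.44 to 0.09 for Nptx2. It was as wide as -1.31 to 0.38 for Nptxr, whose difference was -0.10 ± 0.20 without Brd1+/- vehicle replicate 6, and 0.06 ± 0.19 once scores of the striatal and oligodendrocyte markers entered the fit. Without Brd1+/- vehicle replicate 7 the differences were -0.11 for Nptx2, -0.01 for Homer1, 0.004 for Inhba and 0.04 for Scg2. Leaving out WT vehicle replicate 1, the Nptx2 difference was -0.26 ± 0.11, with an adjusted p of 0.75 in limma, the single gene of the 8 at an unadjusted p under 0.05 against 6.61% of all genes.

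In IMN mice the genotype differences ran from -0.42 ± 0.35 for Nptxr and -0.26 ± 0.17 for Arc to 0.003 ± 0.07 for Pcsk1, with a median of -0.13 against 0.01 over all genes. Again 0 of 8 were called in limma at an unadjusted p under 0.01 (0.614% of all genes) or 0.05 (3.23%), and the exact permutation p, over 92378 arrangements, ran from 0.16 (Arc) to 0.97 (Pcsk1). Of the 9 Brd1+/- IMN libraries, 6 lay below the WT IMN mean for Arc, 6 for Nptx1 and 6 for Inhba. For Nptxr, Pcsk1 and Scg2 5 of 9 did, for Homer1 4 and for Nptx2 3. Without Brd1+/- IMN replicate 9 the Nptxr difference was -0.14 ± 0.27. The 95% interval reached from -0.61 to 0.08 for Arc and from -0.14 to 0.15 for Pcsk1, the narrowest of the 8. Over both treatments the median difference was -0.13, again with 0 of 8 called at an unadjusted p under 0.01 in limma (0.731% of all genes) or under 0.05 (3.62%).

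Whether the difference with IMN varied with genotype was tested as an interaction over the 36 libraries. The estimate, IMN effect in Brd1+/- minus that in WT, ran from -0.28 ± 0.26 for Arc to 0.09 ± 0.23 for Nptx2, and 0 of 8 were called in limma at an unadjusted p under 0.01 (0.547% of all genes) or under 0.05 (3.2%). Its 95% interval was -0.81 to 0.26 for Arc, -0.37 to 0.56 for Nptx2, -0.65 to 0.50 for Inhba and -1.09 to 1.17 for Nptxr. For Homer1 it was -0.45 to 0.41 and for Pcsk1 -0.42 to 0.18. In every gene of the 8 but Nptx2, a genotype gap as large as its IMN difference over both genotypes lies inside the interval. The IMN comparison in WT and the vehicle comparison of genotypes share the WT vehicle libraries.

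Within the groups, the genes did not vary as 1 block. Over the 36 deviations of libraries from the mean of their group, Pearson's r was 0.87 between Nptx2 and Homer1, 0.81 between Nptx2 and Inhba and 0.76 between Homer1 and Inhba. Without WT vehicle replicate 1 these were 0.88, 0.80 and 0.76. Arc was apart, with r between -0.14 (Scg2) and 0.27 (Pcsk1) to the other 7, and Nptx1 ran against Pcsk1 at -0.30, or -0.05 without WT vehicle replicate 1. These correlations are descriptions: the points share the mix of cells in each punch, and TPM of all genes add up to a fixed total.

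**Figure D3:**
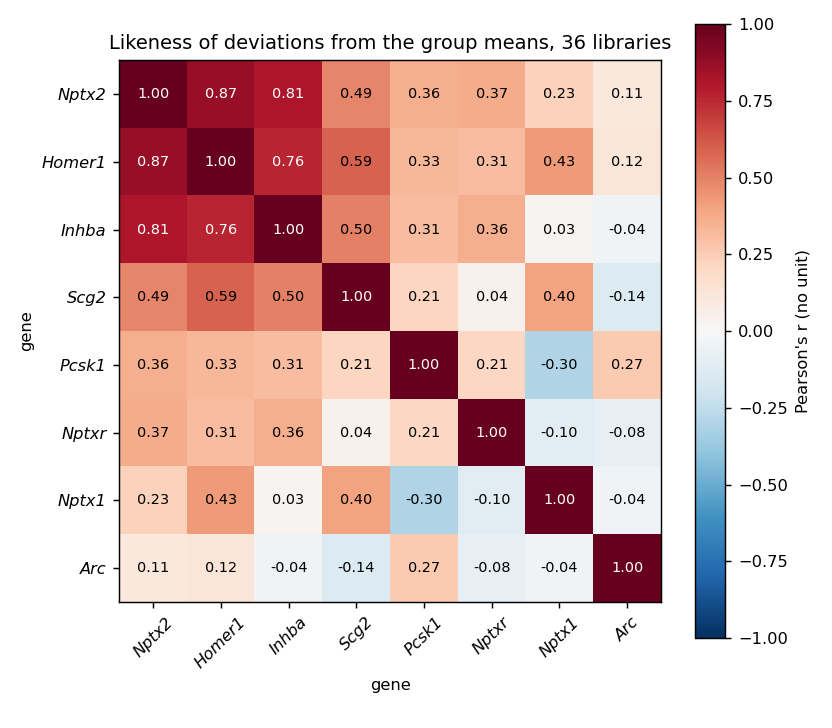
Pearson's r between the 8 genes over the deviations of 36 libraries from their group means, from -1 (blue) to 1 (red). Nptx2, Homer1 and Inhba form the dark corner with r of 0.76 to 0.87, and the row of Arc is pale.

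Some mice stood low or high in many of the genes at once. Brd1+/- IMN replicate 6 lay below its group mean for 8 of the 8 genes and was the lowest of its group for Nptx1, Nptx2, Homer1 and Inhba. WT IMN replicate 3 was lowest for Nptx2, Nptxr, Homer1, Inhba and Scg2, yet highest for Pcsk1. Brd1+/- vehicle replicate 7 was the lowest of its group for Nptx1, Nptx2, Homer1, Inhba and Scg2, while its Arc level lay above the group mean. WT vehicle replicate 1 was lowest for Nptx2, Nptxr, Homer1, Inhba and Pcsk1 and highest for Nptx1 and Scg2. At the other end, WT IMN replicate 6 and Brd1+/- vehicle replicate 9 lay above their group mean for 8 of the 8.

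**Figure D4:**
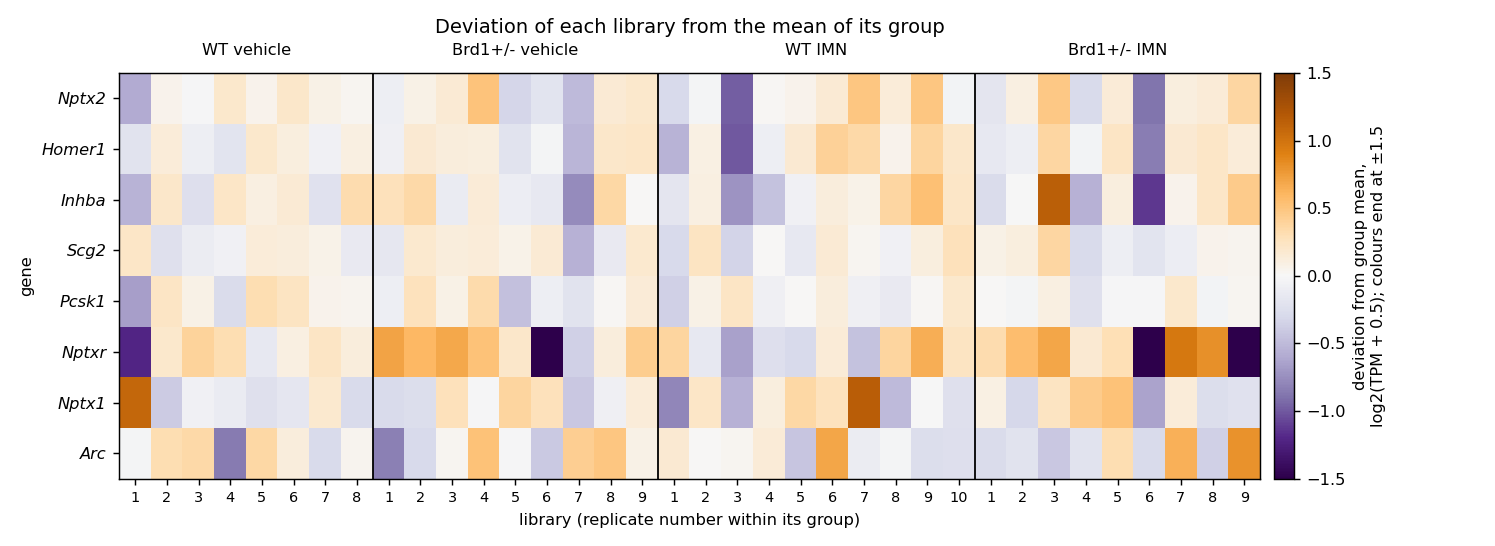
Deviation of each library (columns, by group and replicate number) from the mean of its group in log2(TPM + 0.5), for each gene (rows). Purple is below and orange above the group mean, and colours end at a deviation of 1.5 in either direction. The columns of WT IMN replicate 3 and Brd1+/- IMN replicate 6 are purple for Nptx2, Homer1 and Inhba together, and the row of Arc follows other libraries.

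The pooled SD within groups on the log2 scale was 0.87 for Nptxr, higher than for 96.1% of the 17716 genes that averaged 1 TPM or more. It was 0.44 for Nptx1 and Inhba, 0.41 for Arc, 0.36 for Nptx2 and 0.33 for Homer1. Pcsk1 (0.22) and Scg2 (0.21) lay below the median of those genes, 0.25.

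Genes most like each of the 8 in their deviations were sought among 13126 protein-coding genes that averaged 1 TPM or more. Arc was most like Trib1 (r = 0.84), Gpr3 (0.79) and Spry4 (0.76), and none of the 8 genes was in that set. Nptx2 was followed by Homer1 (0.87), Mas1 (0.84) and Ptgs2 (0.83), the last of which encodes inducible cyclooxygenase. Inhba was most like Ptgs2 (0.85), Cdh4 (0.82) and Nptx2 (0.81), and Homer1 like Nptx2 (0.87), Klhl2 (0.83) and Enc1 (0.79). For Nptx1 these were Ipcef1 (0.92), Lrrtm2 (0.92) and Rprm (0.91). Pcsk1 was most like Htr5b (0.77, or 0.66 without WT vehicle replicate 1), Fosl2 (0.76, or 0.66) and Cdh8 (0.68, or 0.52). The values for Nptxr (Srgap3, 0.70) and Scg2 (Dnttip2, 0.78) were the highest for these genes. All rest on the same 36 libraries.

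Deviations of several of the genes also went with those of marker lists. The mean log2 level of the 10 oligodendrocyte markers had an r of -0.64 with Inhba, -0.62 with Nptxr, -0.45 with Nptx2, -0.28 with Homer1, 0.17 with Arc and 0.51 with Nptx1. For the 8 markers of cortical excitatory neurons r was 0.66 with Nptx1, 0.52 with Scg2 and -0.23 with Arc. The 7 interneuron markers gave 0.49 with Arc, -0.52 with Nptx2 and -0.56 with Inhba, and the 7 microglial markers 0.63 with Inhba and 0.58 with Nptx2. Nptxr had an r of -0.61 with the choroid plexus markers, whose sum was 4598 TPM in 1 library. Between groups, 10 of 10 oligodendrocyte markers had a higher mean under IMN over both genotypes (median 0.41), with 0 of 10 called in limma at an adjusted p under 0.05 and 0 at an unadjusted p under 0.01. Their median was 0.66 in WT mice, 0.98 without WT vehicle replicate 1, and 0.16 in Brd1+/- mice. In each genotype 0 of 10 were lower, against 54.5% of all genes in WT and 47.5% in Brd1+/- mice. With scores of the striatal and oligodendrocyte markers in the fit, the IMN difference over both genotypes was -0.72 ± 0.14 for Arc (-0.67 ± 0.13 without them), -0.58 ± 0.10 for Nptx2 (-0.66 ± 0.11), -0.47 ± 0.11 for Inhba (-0.62 ± 0.14), -0.32 ± 0.10 for Homer1 (-0.39 ± 0.10) and -0.26 ± 0.07 for Pcsk1 (-0.29 ± 0.07). The parts of the other lists in these differences were not tested.

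Lists of partners of the 8 genes were described with IMN over both genotypes. They too were drawn up with earlier results of these data known, so their values, calls included, are a description. Of all genes, 0.184% were lower at an adjusted p under 0.05 and 1.94% at an unadjusted p under 0.01. Lists this short may hold no call at such shares. Of 10 genes of AMPA receptors and pentraxin partners, 0 passed the adjusted level in limma and 0 the unadjusted one. Gria1 and Gria2, which encode receptor subunits, differed by -0.05 and 0.09, and the largest differences were 0.20 ± 0.31 for C1ql2 and -0.14 ± 0.24 for C1ql3, both genes of synaptic C1q-like proteins. Among 11 Homer partners at the postsynaptic density 0 passed either level, with 0.21 ± 0.14 for the inositol trisphosphate receptor gene Itpr1 and -0.13 ± 0.07 for the scaffold gene Shank1. Likewise 0 of 11 Arc partners in endocytosis and the actin cytoskeleton passed either level, with -0.15 ± 0.09 for Wasf1 and -0.11 ± 0.06 for Sh3gl1, the gene of an endophilin.

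Of 12 genes of activin ligands, receptors and inhibitors, 0 passed the adjusted level and 2, Acvr1 and Smad7, were lower at an unadjusted p under 0.01. Acvr1, a type I receptor gene, differed by -0.26 ± 0.07, or by -0.28 ± 0.07 without WT vehicle replicate 1. Without that library it was among the 0.485% of genes lower at an adjusted p under 0.05 in limma. Smad7, which encodes an inhibitory SMAD, differed by -0.15 ± 0.06. The inhibitor gene Fst, which passed neither level, differed by -0.38 ± 0.25. Of 10 genes of prohormone processing and granins, 0 passed the adjusted level and 1 was lower at an unadjusted p under 0.01. This was Furin, the gene of a convertase of the constitutive pathway, at -0.28 ± 0.08, or -0.32 ± 0.07 without WT vehicle replicate 1. Without that library Furin was likewise lower at an adjusted p under 0.05 in limma. Vgf, a secreted neuropeptide precursor gene, differed by -0.27 ± 0.11.

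Lists of other activity-induced genes were, like the 8, drawn up with such responses in these libraries known, and their values are a description. Of 12 further effectors, 2 were lower and 0 higher at an adjusted p under 0.05 in limma (0.184% of all genes were lower). These were Gadd45b, a DNA damage-inducible gene, at -0.43 ± 0.09, and Rgs2, a regulator of G protein signalling, at -0.32 ± 0.07. Bdnf, the gene of a neurotrophin, differed by -0.53 ± 0.15 and the kinase gene Pim1 by -0.56 ± 0.13. Of 14 activity-induced transcription factor genes, 2 were lower at that level, Npas4 at -0.94 ± 0.16 and Egr1 at -0.66 ± 0.13, and Egr2 differed by -1.07 ± 0.32. Without WT vehicle replicate 1 these counts were 4 of 12 and 9 of 14, while the share of all genes that were lower rose to 0.485%. The medians of the 2 lists were -0.30 and -0.42, beside -0.35 for the 8 genes described and -0.002 for all genes.

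**Figure D5:**
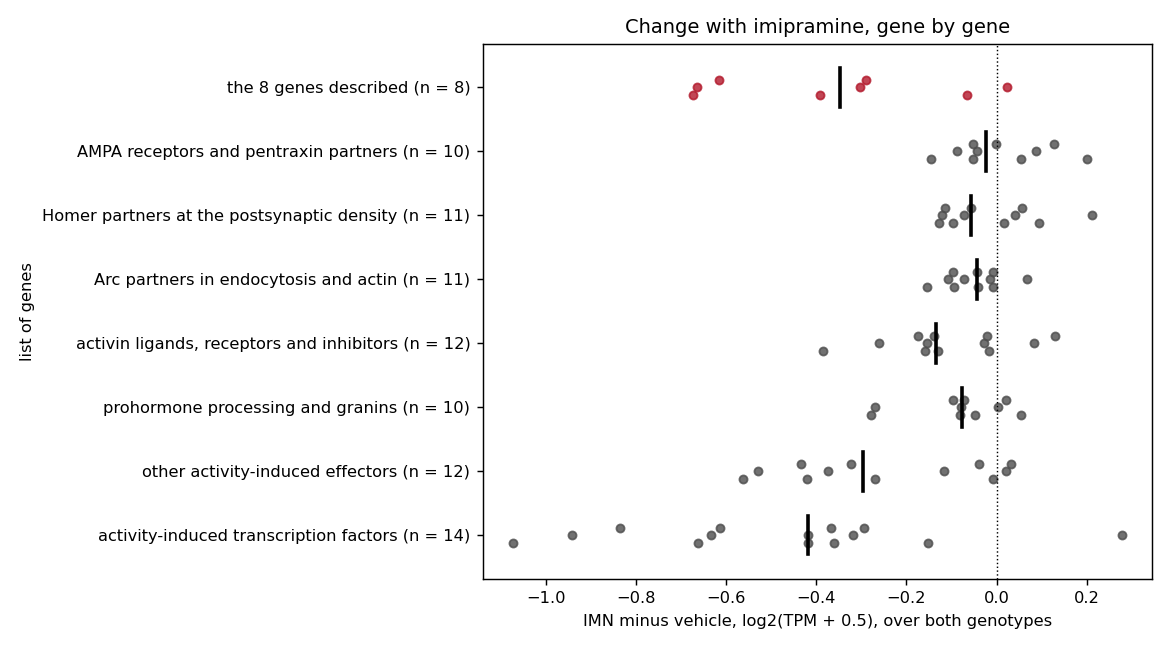
Difference of IMN from vehicle over both genotypes in log2(TPM + 0.5), for the 8 genes described (red) and for 7 lists of related genes (grey), each point a gene and each bar the median of its list. The medians lie at -0.35 for the 8 genes, -0.30 and -0.42 for the lists of activity-induced effectors and transcription factors, and between -0.13 and -0.02 for the lists of partners.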

How the data were processed

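RNA from 1 mm punches of the right aCC was sequenced by the authors as single-end reads on a BGISEQ-500, aligned to GRCm38 with HISAT2 2.1.0 against Ensembl annotation and quantified with StringTie 1.3.4. The deposited values were TPM made by the authors, with no scaling between libraries and column totals of 999727.1 to 999889.0. Strand use was not given in the sources used here. TPM keep no depth, so errors come from the spread between mice, and mitochondrial genes took 21.7% to 30.5% of a library. Symbols matched 52403 of 52636 identifiers.

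TPM were tested as log2(TPM + 0.5), which understates changes of low genes, in the 25572 genes that reached 0.1 TPM in 8 or more libraries. The test was limma 3.58.1 in R 4.3.3 (empirical Bayes with trend, two-sided, Benjamini-Hochberg over all genes tested). A run on simulated data, for the IMN comparison in WT, drew noise independently for each gene. It therefore did not cover deviations that the genes of a library share. Comparisons of a pair of groups used their libraries alone, and the others all 36. Permutation tests, correlations and figures were made in Python 3.11.15 with numpy 2.4.6, pandas 2.3.3 and matplotlib 3.10.9. Genes named were the 8, Brd1, any list gene at an adjusted p under 0.05, otherwise the 2 per list with the largest difference over both genotypes among those averaging 1 TPM, and the 3 most like each of the 8. Gria1, Gria2 and Smad7 were added after their values were seen, as were the calls of Acvr1 and Furin without WT vehicle replicate 1. For the lists of activity-induced genes, calls without that library are given as counts. The 8 genes and all lists were chosen with earlier results of these data known. Positions came from GENCODE M21, promoters from RefSeq. Alternatives were other pseudocounts (0.1, 1), no filter, a stricter one (mean TPM of 1), quantile normalization, median-ratio scaling, array weights, a replicate block, marker scores as covariates, all libraries in 1 fit, each library left out and, added later, Npcd in Nptxr.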

Additional observations from a re-analysis of the deposited data

Results flagged for a closer look

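For each of the 8 genes in each of the 4 groups, 32 sets of values in all, the highest and lowest library were compared with their nearest neighbour by Dixon's gap test, which chance passes in about 1 of 20 sets. It marked 8 values. WT vehicle replicate 1 accounted for 3 of them: Nptx1 at 333 TPM, where the next library had 177 TPM, Nptx2 at 66.0 TPM against 98.1 TPM, and Nptxr at 243 TPM against 507 TPM. This library had the highest summed oligodendrocyte markers of its group, 2850 TPM.

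Nptxr in Brd1+/- vehicle replicate 6 was at 52.9 TPM, where the next library had 319 TPM, and this is the library with 4598 TPM of choroid plexus markers. Brd1+/- vehicle replicate 7 was marked for Inhba at 2.50 TPM against 4.11 TPM and for Scg2 at 102 TPM against 135 TPM, and its 8 markers of cortical excitatory neurons summed to 696 TPM, where the next library had 1420 TPM. Homer1 in Brd1+/- IMN replicate 6 was at 60.4 TPM against 97.8 TPM, in the library with the highest oligodendrocyte sum of its group, 3446 TPM. Arc in WT IMN replicate 6 was at 300.2 TPM against 209 TPM. The part of cell composition in these values was not tested.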

How the results depend on the processing

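The counts of the 8 genes past a threshold with IMN are descriptions, since the genes were chosen with that response known. The number lower in WT mice at an unadjusted p under 0.01, 3, ran from 3 to 5 when each library was left out, with 5 without WT vehicle replicate 1, and that in Brd1+/- mice, 4, from 3 to 5. The number over both genotypes at an adjusted p under 0.05, 3, ran from 1 with the replicate block to 5 with array weights. It was 2 with score covariates and in most fits that left out 1 library, such as WT vehicle replicate 2. Without WT vehicle replicate 1, or without Brd1+/- vehicle replicate 5, it was 4. No pairing by replicate number was detected: of the same-numbered pairs, between 0 and 2 per pair of groups had an r over 0.1, the highest 0.32. The paper describes the WT and Brd1+/- mice as litter-matched, and the sample titles name no litter, so low r cannot exclude a pairing. With the block 4 genes were lower in WT mice, Homer1 and Pcsk1 having joined and Arc having dropped out, and 4 in Brd1+/- mice. With each library left out, the median over the 8 genes ran from -0.23 (without WT IMN replicate 3) to -0.0253 (without Brd1+/- IMN replicate 6) for genotype under IMN, and for the interaction from -0.12 (without Brd1+/- vehicle replicate 7) to 0.0369 (without Brd1+/- IMN replicate 6). Some differences changed sign. For IMN, Nptx1 with score covariates was -0.30 in WT, 0.0561 in Brd1+/- and -0.0138 over both genotypes, and Scg2 in Brd1+/- was 0.00113. Leaving out each library gave Nptx1 -0.0549 to 0.23 in WT, -0.0930 to 0.0526 in Brd1+/- and -0.0410 to 0.0942 over both, and Nptxr in Brd1+/- -0.65 to 0.00338. For Brd1+/- against WT under vehicle, these were Nptxr at 0.0582 with score covariates and Arc at -0.0560, Nptx1 at 0.0377 and Scg2 at 0.0269 with array weights, and leaving out each library gave -0.11 to 0.12 for Arc, -0.17 to 0.0416 for Nptx1, -0.17 to 0.00396 for Inhba and -0.0651 to 0.037 for Scg2. Under IMN, Pcsk1 was -0.000811 with median-ratio scaling and -0.0301 with array weights, and the ranges were -0.0363 to 0.0319 for Pcsk1, -0.19 to 0.0265 for Nptx2 and -0.21 to 0.0021 for Homer1. For the interaction, Homer1 was 0.0341 and Scg2 0.0291 with the replicate block, and Nptx1 0.11, Nptxr -0.48, Homer1 0.0505 and Scg2 0.0540 with score covariates. Its ranges were -0.26 to 0.0270 for Nptx1, -0.0171 to 0.20 for Nptx2, -0.32 to 0.33 for Nptxr, -0.13 to 0.0836 for Homer1, -0.22 to 0.0667 for Inhba and -0.0873 to 0.0184 for Scg2. The causes were not tested. Depth per library is unknown.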
